A study of Mus musculus with 12 samples.

Results

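The clustered protocadherin genes are tandem arrays of adhesion receptor genes on mouse chromosome 18, named Pcdha, Pcdhb and Pcdhg here and α, β and γ clusters below. Members were all RefSeq protein-coding genes of build GRCm38 (mm10) on chromosome 18 whose symbols begin with Pcdha, Pcdhb or Pcdhg. This gave 57 genes, of 21523 protein-coding genes used on chromosomes 1 to 19 and X. The 3 clusters with the gaps between them and 200 kb on either side held 10 of the 28210 listed H4K20me3 domains.

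The domains come from ChIP-seq of H4K20me3, trimethylated lysine 20 of histone H4, in mouse embryonic stem cells of 1 line, dTKO, with the genotype Suv39h1fl/fl; Suv39h2-/-; Setdb1fl/fl. All 12 libraries carry that genotype and are labelled as given auxin (100 μg/ml) and dTAG13 (0.5 μM), for 0, 12, 24 or 48 h, with 3 replicates per time. The study follows the loss of H4K20me3 after ablation of H3K9 methyltransferases, the enzymes encoded by Suv39h1, Suv39h2 and Setdb1. The deposited values are 1 list of domain positions that names no library or time and carries no signal. Decay, sequencing depth and replicate error could therefore not be measured, every value is a description of that list, and no difference below was tested. With positions alone, the labelled cell type could not be checked against its markers either.

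As background, each α and γ gene begins with its own promoter and a large variable exon, which encodes the cadherin repeats, the membrane span and part of the cytoplasmic tail. In α and γ transcripts this exon is spliced to constant exons shared by the whole cluster, whereas β genes have no constant exons. In neurons, promoters are chosen stochastically, so that single cells carry different sets of protocadherins that bind like with like. The C-type genes (Pcdhac and Pcdhgc) stand at the end of their clusters and follow different rules of promoter choice. CTCF, cohesin and DNA methylation take part in this choice, and Setdb1 is known in mouse neurons to keep the locus folded and repressed. H4K20me3 is a mark of constitutive heterochromatin that is deposited downstream of H3K9me3.

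No domain lay at the start of any of the 57 protocadherin genes, which is near the 1.96% of RefSeq promoter windows that met one. Member gene bodies held 3 of the 10 domains, all in the α cluster. Of the 10 domains, 4 lay before the α cluster, 3 within it, 2 between α and β, 1 among the β genes, and none in the γ cluster or in the 200 kb after it. In bases, 89.1 kb of the 98.85 kb of domain sequence, or 90.1%, lay outside the 3 clusters. Inside the clusters, 9.75 kb of 695.1 kb (1.40%) was covered, compared with 3.47% of chromosome 18 and 4.24% of all autosomes after their first 3 Mb. Density was 5.75 domains per Mb inside the clusters, 9.01 on chromosome 18 and 10.7 on the autosomes. From α to γ with the gaps, 6 domains covered 2.58%, beside a median of 3.19% in 2627 autosomal windows of that length. Of these windows, 40.4% were covered as little or less and 37.3% had as few domains or fewer.

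**Figure D1:**
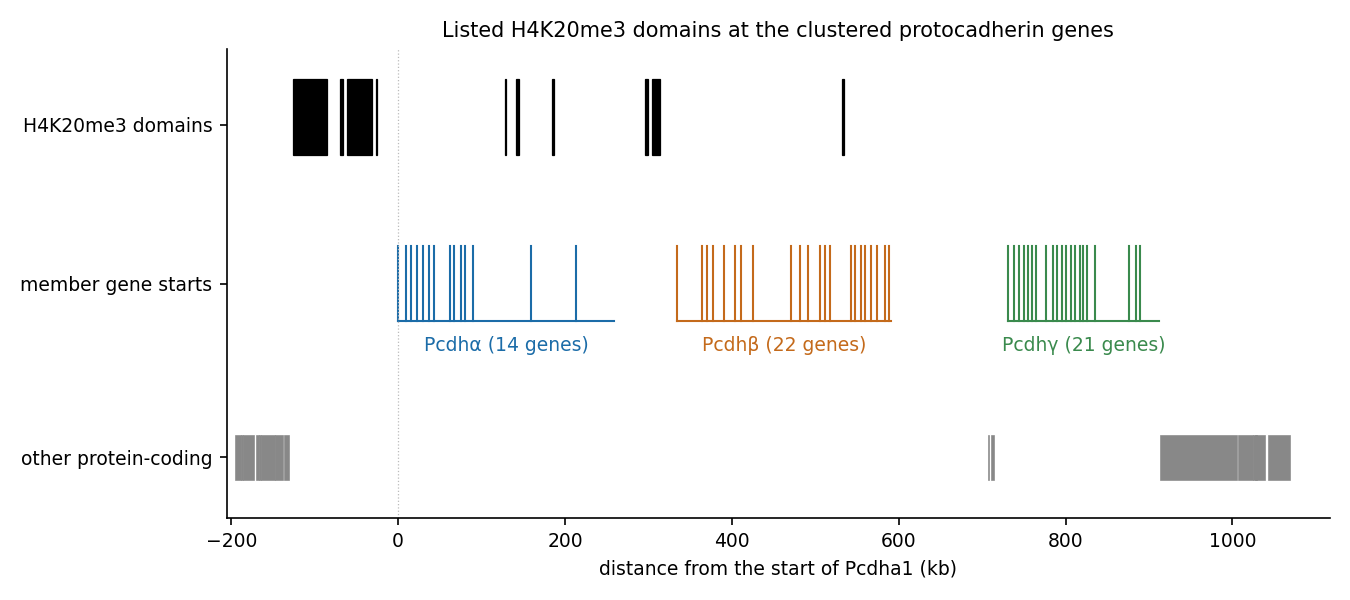
Map of the locus, in kb from the annotated start of Pcdha1. Black bars are the 10 listed domains, coloured ticks are the starts of the 57 member genes over a line for each cluster, and grey bars are other protein-coding genes, without the 3 predicted genes that span α to γ. Domains narrower than a line are drawn at line width. The 2 widest blocks stand left of Pcdha1 and the right part of the map has no domain.

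By gene body, 13 of the 57 members (all in the α cluster) shared at least 1 base with a domain, beside 14.1% of all protein-coding genes and 18.2% of the 511 on chromosome 18. These 13 are not separate observations. The α gene bodies are nested, each running from its own start to the shared constant exons, and the 13 genes shared 3 domains of 6.60 kb in all. The annotation used here gives gene starts and ends without exons. A domain was therefore also assigned to the member in whose stretch it lay, from that gene's start to the start of the next member of its cluster. Counted in this way, 3 members had a domain, namely Pcdha12 with 2, Pcdhac1 with 1 and Pcdhb14 with 1, and in Pcdhb14 it lay beyond the end of the gene.

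The α cluster (14 genes, chr18:36930285-37188897, 258.6 kb) had its 3 domains downstream of the start of Pcdha12, the last tandem α gene. The 89.9 kb from the start of Pcdha1 to the start of Pcdha12, which holds the starts of 11 tandem α genes, had no domain. The first domain (chr18:37058851-37059900, 1.05 kb) lay 38.6 kb after the start of Pcdha12 and 30.2 kb before that of Pcdhac1. It was short, since 92.0% of the 25730 autosomal domains after the first 3 Mb were as wide or wider. The second (chr18:37071751-37075650, 3.90 kb) lay 51.5 kb after the start of Pcdha12 and 14.5 kb before Pcdhac1. The third (chr18:37114951-37116600, 1.65 kb) lay 24.8 kb after the start of Pcdhac1 and 27.1 kb before Pcdhac2. From the start of Pcdhac2, the last variable gene, to the end of the constant region, 45.2 kb had no domain.

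Each α domain stood between annotated gene starts and away from them. No exon table was used, but the β genes, which consist mainly of the exon that corresponds to a variable exon, give a scale. Their bodies were 2.34 to 5.27 kb long, with a median of 3.42 kb. The smallest distance from an α start to a domain downstream of it was 24.8 kb, at Pcdhac1, or 38.6 kb for the tandem genes, at Pcdha12. A stretch of the length of any β gene, laid from an α start, ends before these domains.

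The covered share of an α gene body differed between members with the length of the body and with the number of domains inside it. The tandem genes Pcdha1 to Pcdha12 all contained the same 3 domains. Pcdha1, the longest at 257.4 kb, had 2.56% of its body covered, and Pcdha12, with 167.4 kb, had 3.94%. Pcdhac1 contained the third domain alone and had 1.69% of 97.5 kb covered. Pcdhac2 contained none, and its body began 27.1 kb after the nearest domain. No member had at least 50% of its body covered, as 0.739% of all protein-coding genes did. Beside the α count of 13 of 14, a domain met 28.8% of the 5300 protein-coding genes of 40 to 260 kb, the range that holds the α bodies. The median α body was 204.5 kb, so this range is not closely matched to them in length. The 13 genes also share 3 domains, so their count is not like a share over separate genes.

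The gap between α and β (76.1 kb) was more densely covered than either cluster. It held 2 domains, of 3.60 kb (chr18:37226401-37230000) and 10.2 kb (chr18:37234051-37244250), which stood 4.05 kb apart. Together they covered 13.8 kb, or 18.1% of the gap. The first began 37.5 kb after the end of the α cluster at Pcdha6, and the second ended 20.7 kb before Pcdhb1, the first β gene. The wider was the widest domain between Pcdha1 and Pcdhgc5, and 6.33% of autosomal domains were as wide or wider. HS5-1, an enhancer of α promoters, is known to lie downstream of the α constant exons. Enhancers are not part of the annotation used here, and whether a domain meets HS5-1 was not tested.

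**Figure D2:**
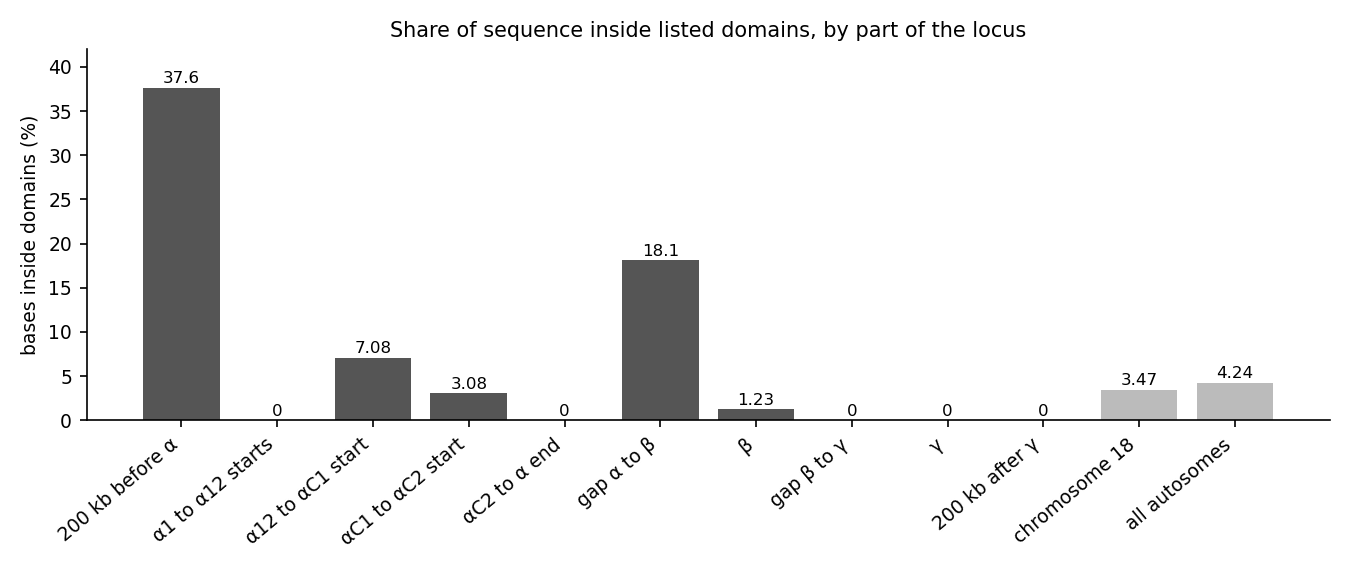
Share of bases inside listed domains (%), for consecutive parts of the locus (dark bars) and for chromosome 18 and all autosomes after the first 3 Mb (light bars). Coverage was 37.65% in the 200 kb before α and 18.1% in the gap between α and β, and 0 in the 5 parts marked 0.

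The β cluster (22 genes, chr18:37264998-37521419, 256.4 kb) had 1 domain, and it lay in no β gene. Only the predicted genes that span α to γ, described below, contained it. None of the 22 β genes shared a base with a domain. Of the 3043 protein-coding genes of 2 to 6 kb, which covers the β lengths, 3.06% did, so that a count of 0 in 22 is near this share. The domain (chr18:37461751-37464900, 3.15 kb) lay between Pcdhb14 and Pcdhb15, 10.7 kb after the end of Pcdhb14 and 8.65 kb before the start of Pcdhb15. That was the shortest distance from any of the 57 starts to a domain. Before this domain, 217.5 kb with the starts of Pcdhb1 to Pcdhb14 had none.

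The γ cluster (21 genes, chr18:37661775-37841873, 180.1 kb) had no domain, in its 12 Pcdhga, 6 Pcdhgb or 3 Pcdhgc genes. Pcdhga1, the member nearest to a domain, began 196.9 kb after it, and Pcdhgc5, the farthest, 354.6 kb after it. Among protein-coding genes of 20 to 200 kb, 20.1% of 8956 met a domain. The γ bodies end at shared constant exons and cover 1 stretch, so they count as 1 region and not as 21 genes without a domain. Among consecutive autosomal windows of the same length as the γ cluster, 26.2% of 13334 had no domain either. For windows of the length of the α cluster the median was 2 domains and 2.61% of bases covered, beside 3 domains and 2.55% in α. For windows of β length the median was also 2 domains, with 2.63% covered, beside 1 domain and 1.23% in β.

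At gene starts, where the promoters of the variable exons lie, no member met a domain. A window of 300 bases, from 250 before to 50 after the annotated start, shared no base with a domain in any of the 57 genes. In the RefSeq promoter table, which gives the same window for other genes, 1.96% of 32619 windows did. Only Pcdhb15 started within 10 kb of a domain, and 9 members started within 25 kb of one. The median distance from start to nearest domain was 47.6 kb in α (14.5 to 68.3 kb), 44.5 kb in β (8.65 to 106.5 kb) and 260.8 kb in γ (196.9 to 354.6 kb). The α and β ranges overlapped, and every γ start was farther from a domain than any α or β start. Neighbouring starts share their nearest domain, and all 21 γ distances run to the 1 domain in β. They are therefore not separate observations.

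**Figure D3:**
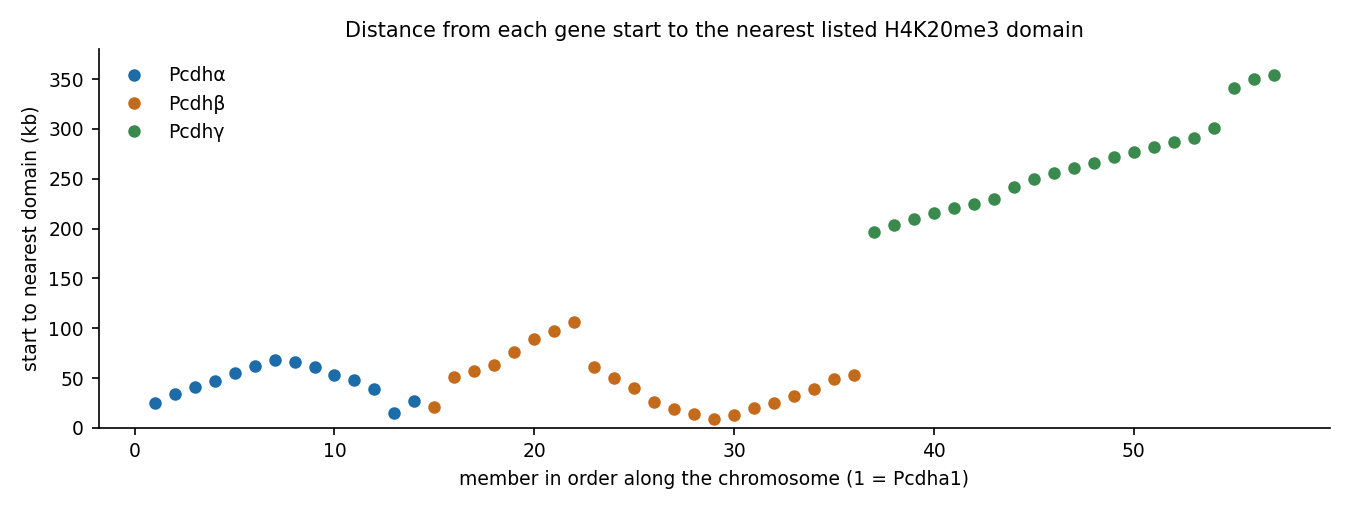
Distance (kb) from the annotated start of each member to the nearest listed domain, with the 57 members in their order along the chromosome and 1 point per gene. The α and β points lie between 8.65 and 106.5 kb and the γ points between 196.9 and 354.6 kb. All γ points are distances to the same domain.

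Measured from the gene body instead, the distance to the nearest domain was 0 for 13 α genes and 27.1 kb for Pcdhac2. It was 8.65 to 104.1 kb for the β genes and 196.9 to 354.6 kb for the γ genes. The median over all 21523 protein-coding genes was 38.3 kb, with quartiles of 8.12 and 114.3 kb. A body at least as far from a domain as Pcdhga1 was found in 13.4% of them.

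Within the clusters, the domains lay in the wider intervals between neighbours. In α, the 13 intervals between successive starts were 5.41 to 69.9 kb wide, with a median of 7.44 kb. The interval from Pcdha12 to Pcdhac1 (69.9 kb, 2 domains) was the widest and that from Pcdhac1 to Pcdhac2 (53.5 kb, 1 domain) came next. The other 11 held no domain. In β, the 21 intervals from the end of a gene to the start of the next were 1.17 to 43.2 kb wide, with a median of 4.26 kb. The domain lay in the third widest, 22.5 kb, while the widest 2, from Pcdhb8 to Pcdhb9 (43.2 kb) and from Pcdhb1 to Pcdhb2 (27.4 kb), had none. In γ, the widest of 20 intervals, from Pcdhga12 to Pcdhgc3 (40.8 kb), had none either. If domains were placed evenly along the sequence, wider intervals would more often hold one, and the order was not tested.

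**Figure D4:**
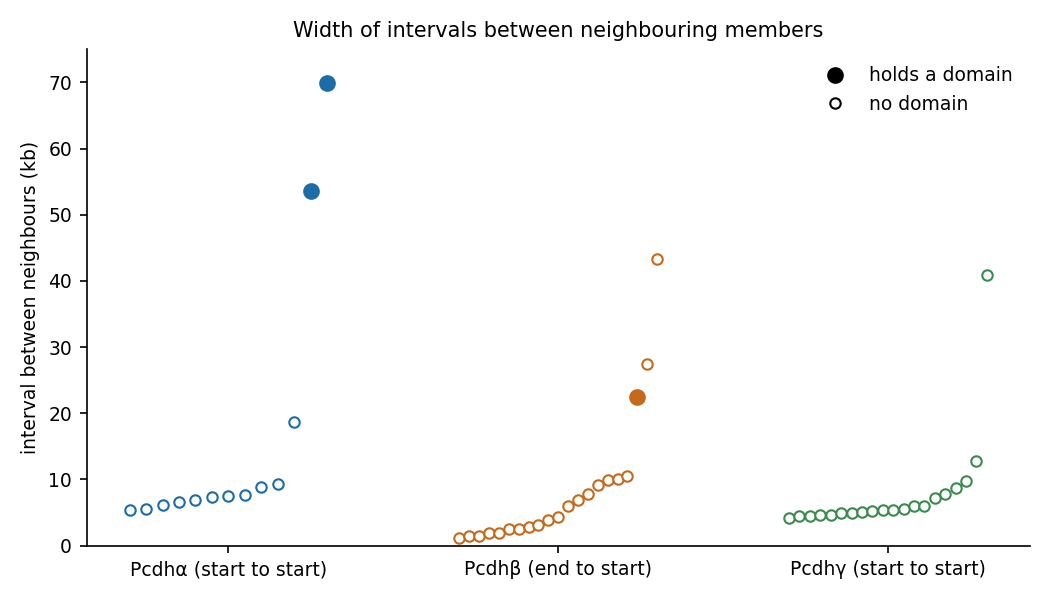
Width (kb) of the intervals between neighbouring members, from start to start in α and γ and from gene end to next start in β, sorted within each cluster. Filled points hold a domain, and open points hold none. The filled points are the 69.9 and 53.5 kb intervals of α and the 22.5 kb interval of β.

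The sequence before the α cluster was the most heavily covered part of the locus. The 200 kb before Pcdha1 held 4 domains that covered 75.3 kb, or 37.65%. From the far end, they were 40.05 kb (chr18:36804751-36844800), 3.45 kb (chr18:36860401-36863850), 30.0 kb (chr18:36869401-36899400) and 1.80 kb (chr18:36903751-36905550) wide. The 40.05 kb domain was among the widest 32 and the 30.0 kb domain among the widest 58 of the 25730 autosomal domains after the first 3 Mb, and they stood 24.6 kb apart. The last of the 4 ended 24.7 kb before Pcdha1. All 4 lay in 118.2 kb without an annotated gene, between Vaultrc5, a vault RNA gene that ended 2.64 kb before the widest domain, and the pseudogene Gm6756, which began 14.8 kb after the last. Domains covered 63.7% of this stretch.

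Among 12006 consecutive autosomal windows of 200 kb, 27 (0.225%) were covered as much or more, and the median was 2.40% with quartiles of 0.375 and 5.93%. The 200 kb on the other side, after the γ cluster, had no domain, as was the case for 23.5% of these windows. The housekeeping genes beyond the gene-free stretch, Zmat2, Hars2 and Hars, the last of which encodes a histidyl-tRNA synthetase, met no domain.

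**Figure D5:**
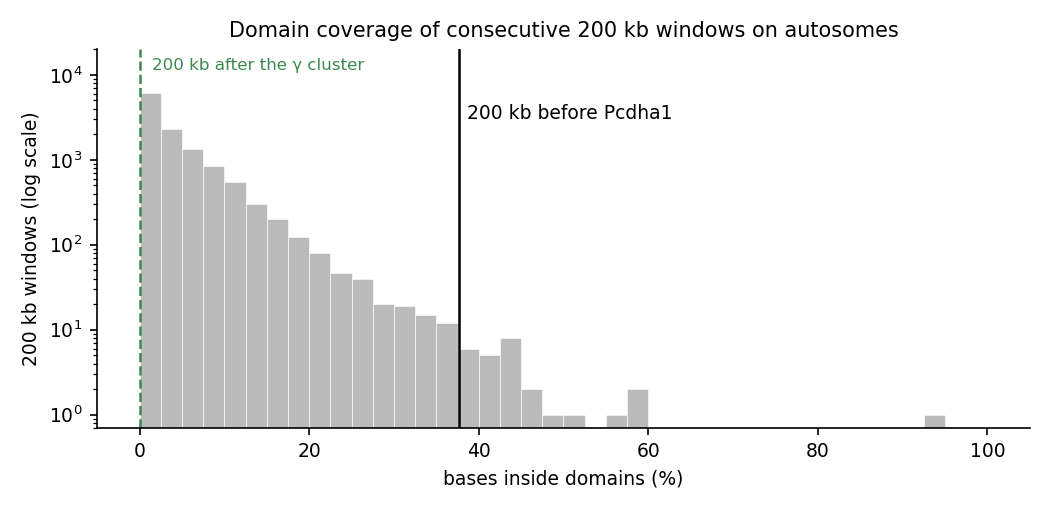
Number of consecutive 200 kb windows of the autosomes after the first 3 Mb, on a log scale, by the share of bases inside listed domains (%). The solid line marks the 200 kb before Pcdha1 at 37.65% and the dashed line the 200 kb after the γ cluster at 0.

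The 10 domains formed a group with long empty stretches on both sides. From the first to the last they spanned 660.2 kb (chr18:36804751-37464900). Before them, 1160 kb had no domain, the longest such stretch on chromosome 18, with 32 protein-coding genes wholly inside. After them, 909.3 kb (chr18:37464901-38374200) had none, the fourth longest of 788 on chromosome 18, where 96 of 25715 autosomal stretches (0.373%) were as long or longer. The autosomal median was 40.5 kb. The stretch after the last domain ran from Pcdhb15 to beyond the γ cluster and held 29 members, the last 8 β genes and all 21 γ genes. It also held 12 other protein-coding genes, among them Taf7, a subunit of the general transcription factor TFIID, and the solute carrier gene Slc25a2, both between β and γ, and Diaph1, a formin gene, and Hdac3, a histone deacetylase gene, after γ.

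Of 33 other annotated genes within the clusters and their 200 kb flanks, 18 were protein-coding. A domain met 3 of these 18, beside 14.1% of all protein-coding genes, and no gene of another type. The 3 were the predicted genes Gm37013, Gm38666 and Gm38667, which are annotated from the starts of Pcdha4, Pcdha6 and Pcdha7 to the end of the γ cluster. Each contained the same 6 domains, those from the downstream part of α to the β cluster, over 2.65 to 2.71% of its body. These bodies of 868.1 to 889.2 kb overlap, so the 3 are not separate observations, and no share for genes of that length is given here.

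Unclustered protocadherins, single genes of the same family that lie mostly elsewhere in the genome, met a domain in 4 of 12 cases (33.3%, beside 14.1% of all protein-coding genes and 28.8% of those of 40 to 260 kb). Pcdh15, a component of the hair-cell tip link, had 22 domains and 4.51% of 1554 kb covered, and Pcdh11x had 10 domains and 3.63% of 620.4 kb. Pcdh7 had 3 domains (1.69% of 417.1 kb) and Pcdh9 had 3 (0.870% of 879.1 kb). These were the 4 longest genes of the list, and all were longer than 260 kb. The share for genes of 40 to 260 kb is therefore not matched to them in length. Pcdh1 and Pcdh12, which lie on chromosome 18 in the empty stretch after the γ cluster, met none. The promoter table held 10 windows for 9 of the 12 genes, and none of them shared a base with a domain. That is a small number to set beside the 1.96% of all windows in that table.

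Of 15 factors known to act at the clustered protocadherin locus, 3 met a domain (20.0%, beside 14.1% of all protein-coding genes and 20.1% of those of 20 to 200 kb). Setdb1, whose alleles are floxed in the dTKO line, had 6 domains over 18.7% of its body, Wapl, which releases cohesin from DNA, had 1 over 4.36%, and Stag1, a cohesin subunit gene, had 1 over 0.291%. Ctcf, Rad21, Smc1a, Smc3, Stag2, Nipbl, Smchd1, Dnmt1, Dnmt3a, Dnmt3b, Rest and Trim28 had none. Stag1, at 360.8 kb, and Trim28, at 6.88 kb, are outside the range of 20 to 200 kb, so that share is not fully matched in length. Of 5 genes for intracellular partners of clustered protocadherins, namely Ptk2, Ptk2b, Fyn, Axin1 and Ret, none met a domain, which is a small number to set beside the 14.1% of all protein-coding genes.

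As other tandem families of cell-surface receptors, Vmn2r vomeronasal receptor genes met a domain in 40 of 122 cases (32.8%) and Olfr olfactory receptor genes in 31 of 1109 (2.80%), beside 14.1% of all protein-coding genes. Median gene length was 24.6 kb for Vmn2r and 0.951 kb for Olfr. A domain met 20.1% of protein-coding genes of 20 to 200 kb. For genes of 2 to 6 kb, still longer than the Olfr median, the share was 3.06%, near that of Olfr. Vmn2r85 (56.7% of the body covered), Vmn2r11 (53.5%), Vmn2r12 (37.6%), Vmn2r97 (34.2%) and Vmn2r87 (28.2%) had the largest covered shares, and 10 Olfr genes lay wholly inside a domain. The highest share in a clustered protocadherin was the 3.94% of Pcdha12. The families differ in gene length and in how far their bodies overlap, and the difference between them was not tested.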

How the data were processed

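The deposited file is 1 list of 28210 H4K20me3 domains (chromosome, start, end, no header), called by the authors with RSEG per the file name; its settings and input libraries remain not given in the sources used here, and tools appear without roles: deepTools, bedtools, SAMtools 1.1, Bowtie2 2.3.4.1 and the builds mm9, mm10, GRCm38 and dm6, per the submitters' processing notes. All but 1 domain have both ends on a grid of 150 bases, so boundaries are no finer than that. Depth is unknown here. The domain positions were read as GRCm38 (mm10) positions, without conversion. The builds appear without roles, so that reading is an assumption, and positions from another build would change every placement.

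Genes came from a RefSeq table of GRCm38.p6 (starts, ends, symbols, no exons or strand), without 340 genes that start in the first 3 Mb. A gene met a domain when they shared at least 1 base; positions are counted from 1. Distances count the bases between. Windows follow each other from 3 Mb on. Members, lists and alternatives were chosen with earlier results of these data known. The planned comparison of times was not run, because the list has no values per library. Named were members with a domain in their own stretch, the γ gene nearest to one, flanking genes that met one, and, in each other list, members that met a domain (where over 5 did, the 5 with the largest covered share, unless tied); 1 factor beyond those listed is not reported here, and other genes are named for position, after their values were seen. The overlap code was checked against a base-by-base count on simulated intervals, which is no test of any result. Python 3.11.15, numpy 2.4.6, pandas 2.3.3 and matplotlib 3.10.9 were used.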

Additional observations from a re-analysis of the deposited data

How the results depend on the processing

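Of 17 alternative counts, 13 stayed within 1.5 times the reported value. When a gene was given only the stretch up to the next member's start, 3 protocadherin genes in place of 13 had a domain. The nested α bodies then no longer shared domains, which left Pcdha12 and Pcdhac1, and Pcdhb14 was gained because its stretch runs past its end. With at least 50% of the gene body covered 0 did (0.739% of all protein-coding genes). With the list limited to domains of at least its median width, 3.00 kb, 1 domain in place of 3 met a member body and 2 in place of 4 lay inside the clusters, since the short α domains were left out. With 1 kb either side of the body, 13 members met a domain (15.5% of all protein-coding genes). Merging domains less than 5 kb apart changed no count of member genes or of domains inside the clusters. The merge was not run on the domains outside them. Gaps of 4.35 kb before α and 4.05 kb between α and β would close there, which would lower those counts. Requiring at least 50% of the domain inside the body, adding the pseudogene Pcdhgb8, and flanks of 100 or 500 kb changed no count. No paired analysis was possible because the list names no library, and for the same reason no replicate could be left out. The list has no score, so a stricter threshold could be tried only as width.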
